A study of Mus musculus with 3 samples.

Results

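Gene expression in mouse C3H10T1/2 cells after 0.01 uM hexavalent chromium, Cr(VI), was compared with that in untreated cells, on 1 array a side. A probe entered the comparison where its spot was well above background on both arrays and saturated on neither. Of 41167 usable probes, 14702 met this rule, and they represent 10575 of 27720 genes (38.1%). A gene was represented by its brightest such probe. Cells were seeded at 2000 per flask in 3 flasks a group. The treated group received Cr(VI) for 48 h, starting 24 h after seeding, and was then washed and kept in fresh medium. The untreated group had no Cr(VI). Both groups were trypsinised after 15 days in culture and RNA was then isolated, so the arrays describe cells well after the exposure had ended. A further array holds cells given 1 uM Cr(VI) on the same schedule, and its values are printed beside the others for scale. The labels do not say whether the 3 flasks of a group were pooled. With 1 array a group, no test between conditions was possible and no p-value was computed. In a bulk RNA sample, fewer cells of a type and less RNA per cell cannot be told apart.

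C3H10T1/2 is a fibroblast-like line from mouse embryo that grows as a flat layer, and its loss of growth control is used to score chemical transformation. Chromate enters cells through anion transporters, because it resembles sulfate in shape, and is reduced inside the cell by ascorbate and thiols such as glutathione. The reduction yields Cr(III), which binds DNA and protein, and reactive intermediates. The series, by its title, concerned ERK signalling, altered gene expression and transformation at submicromolar doses, and the present comparison asks which transcripts differed at the lowest dose.

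The labelled cell type was checked first. Of 24 mesenchymal line markers, 21 were above background on each of the 3 arrays, though not the same 21. Thy1 was above it on the untreated and 0.01 uM arrays only, and Mcam on the 1 uM array only. Vim, which encodes the intermediate filament protein vimentin, stood at 6.47 on the untreated array, 6.81 at 0.01 uM and 6.10 at 1 uM, as log2 signal relative to each array's 75th percentile, the scale of all levels below. None of the 12 epithelial markers was above background on the untreated or 0.01 uM array. Of 23 macrophage and blood cell markers on the array, 3 were above background on both, and the pan-leukocyte gene Ptprc was not among them. The summed level of the blood cell list was 3.32 untreated and 3.45 at 0.01 uM, and that of the mesenchymal list 9.25 and 9.54. The mesenchymal sum includes probes of Col1a1, Col1a2 and S100a4 that were saturated on both arrays. The blood cell sum includes markers that were not above background. Neither pair of sums is therefore a measured change.

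The 0.01 uM array was the dimmest of the 3. Its 75th percentile signal was 515 units, against 697 untreated and 752 at 1 uM, and 36.4% of probes were above background, against 41.8% and 41.5%. Accordingly 2278 probes were above background on the untreated array but not at 0.01 uM, and 37 the other way round. The lowest detected level was -3.02 untreated and -2.11 at 0.01 uM, so a gene that fell below -2.11 at 0.01 uM left the comparison. The part this played in any difference of dim genes was not tested.

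At 0.01 uM most genes stood near their untreated level. The log2 difference, 0.01 uM minus untreated, was within 1.2-fold for 9236 genes (87.3%). It had a median of 0.06, quartiles of -0.05 and 0.15, and 1st and 99th percentiles of -0.56 and 0.53. The 0.01 uM array was higher by 1.5-fold or more for 79 genes (0.747%) and lower by that much for 94 (0.889%). A 2-fold threshold was passed by 8 higher genes (0.0757%) and 8 lower ones (0.0757%). Among the higher ones, Sod3, Trim30d, AK049026, Ncf4, Cep290, Rtn4ip1 and Dus4l read below -2.11 untreated, the lowest detected level at 0.01 uM. They could enter the comparison only by reading higher there, so the equal counts show no balance. The same limit holds for others of the 79 higher genes, among them Aqp11 (-2.64 untreated), Hoxc4 (-2.53) and Actn3 (-2.40). The counts of 79 and 94 therefore show no balance either. These percentages are the background against which the gene lists below are read. Over the 10406 genes also measured on the 1 uM array, the SD of the differences was 0.19 for the low dose and 0.59 for the high dose. Of those genes, 9136 were within 1.2-fold at 0.01 uM and 4475 at 1 uM; both comparisons use the same untreated array.

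**Figure D1:**
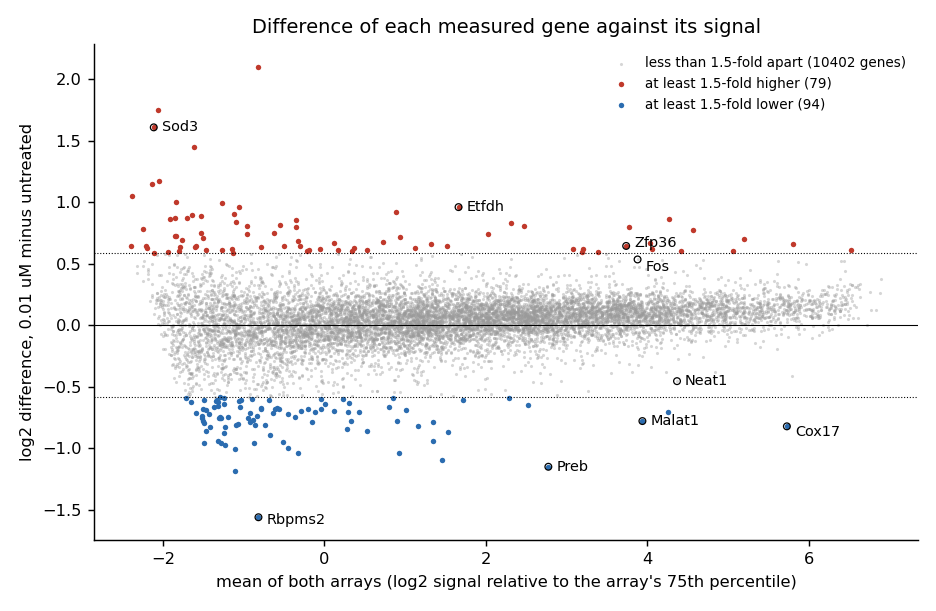
Each point is 1 of 10575 genes: the horizontal axis is its mean log2 signal on both arrays relative to the 75th percentile, the vertical axis its log2 difference, and dotted lines mark 1.5-fold. The cloud is widest at low signal and narrows toward bright genes, and most of the 79 higher (red) and 94 lower (blue) genes lie at its dim end.

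Technical error was of the same order as most of these differences. Replicated probes were printed in 10 spots, of which 8 to 10 remained after outlier spots were left out. They gave a median SD of the difference over spots of 0.06, and at most 0.28, over probes of 104 genes. None of those probes differed by 1.5-fold, and 95 were within 1.2-fold. The scanner software's error model gave each gene a standard error of at least 0.20, with a median of 0.21, and 300 of 10575 genes differed by more than 2 such errors. Both errors are technical and leave out the spread between cultures. Of the 173 genes past 1.5-fold, 64 (37.0%) were in the dimmest of 10 equal bins of signal.

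Different probes of one gene give a further check on a spot, though not on a culture. Over 3279 genes with at least 2 probes, the differences of the brightest 2 correlated with Pearson's r = 0.33, against 0.74 over 3220 genes at 1 uM, as a description across genes that share both RNA samples. Of the 79 higher genes, 8 had a second probe: 5 were above 0 and none reached 1.3-fold. Of the 94 lower genes, 11 had one: 6 were below 0, 4 reached 1.3-fold lower and 1 reached 1.5-fold. Most differences past 1.5-fold therefore rest on a single probe. Of 107 named genes, 37 with differences under 1.5-fold, between -0.10 and 0.27, changed sign under at least 1 other scaling or probe setting, so values of that size have no settled direction.

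The lower transcript with the most probes was Malat1, a long noncoding RNA retained in nuclear speckles. Its 4 probes, all 60 bases long, are printed with that of Neat1, the noncoding RNA that scaffolds nuclear paraspeckles and lies near Malat1 on chromosome 19, and with that of Gt(ROSA)26Sor, a noncoding RNA of the ROSA26 locus that stood the other way. They are shown because separate stretches of 1 transcript could be read side by side, and because base content recurs below. Letters run 5′ to 3′ and capitals mark G and C. Positions are given in build mm9 as annotated for the array, and all 6 probes lie on the minus strand: the Malat1 probes 1 to 4 at chr19:5800526-5800585, chr19:5799100-5799159, chr19:5798230-5798289 and chr19:5802193-5802252, Neat1 at chr19:5842564-5842623 and Gt(ROSA)26Sor at chr6:113021054-113021113.
Malat1 probe 1: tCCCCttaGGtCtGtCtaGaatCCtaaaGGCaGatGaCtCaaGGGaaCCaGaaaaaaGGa
Malat1 probe 2: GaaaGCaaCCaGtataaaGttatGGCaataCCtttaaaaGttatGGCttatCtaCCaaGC
Malat1 probe 3: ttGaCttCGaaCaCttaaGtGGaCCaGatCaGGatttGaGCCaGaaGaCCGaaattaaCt
Malat1 probe 4: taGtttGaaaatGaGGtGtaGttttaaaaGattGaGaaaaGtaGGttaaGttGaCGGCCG
Neat1: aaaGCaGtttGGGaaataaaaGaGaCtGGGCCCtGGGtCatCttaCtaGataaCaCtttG
Gt(ROSA)26Sor: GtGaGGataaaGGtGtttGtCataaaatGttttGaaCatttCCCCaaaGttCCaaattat

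Malat1 probe 1, with 27 G or C, read 4.33 untreated, 3.55 at 0.01 uM and 4.44 at 1 uM. Probes 2 and 4, with 21 each, read 1.02 and 0.83 untreated and 0.59 and 0.23 at 0.01 uM. Probe 3, with 25, read 0.89 untreated and 0.22 at 0.01 uM. On every probe the 0.01 uM array was the lowest of the 3, and the 4 differences from untreated were -0.78, -0.44, -0.67 and -0.61 for 4 separate stretches of the RNA. Neat1, on 1 probe with 25 G or C, read 4.60, 4.14 and 4.44 in the order untreated, 0.01 uM and 1 uM, a difference of -0.46, which is under 1.5-fold. Gt(ROSA)26Sor, with 19 G or C, the fewest of the 6 probes, read -1.71 untreated and -1.23 at 0.01 uM, 0.48 higher. Among all 100 genes annotated as long noncoding, 5 were lower by 1.5-fold or more and 1 was higher, with a median difference of 0.02. Over all genes, 0.889% were lower and 0.747% higher. The noncoding class is dim, with a median signal of -0.18 against 1.46 over all genes. Its 1 higher gene, Stk35os1, read -2.51 untreated, so it could enter the comparison only by reading higher at 0.01 uM.

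Only probes that met the rule on both arrays were counted, and 3279 genes had at least 2 of them. Of these 3279 genes, 9 besides Malat1 had every such probe at least 1.3-fold lower, and 6 had every one at least 1.3-fold higher. How many would do so through technical error alone was not tested. Lower on both of 2 probes were Ogt, the transferase that adds O-linked N-acetylglucosamine to nuclear and cytosolic proteins (-0.55 and -0.52), and Ccnt2, a cyclin of the elongation factor P-TEFb (-0.78 and -0.52). Atr, the kinase that responds to stalled replication forks, read 2.20 untreated, 1.76 at 0.01 uM and 2.45 at 1 uM on its brighter probe, and its probes differed by -0.44 and -0.51. Ptbp2, a splicing regulator related to PTBP1, differed by -0.54 and -0.50. Paxbp1, Washc4, Sltm, Pitpnc1 and the noncoding 4930520O04Rik make up the remainder; a further Pitpnc1 probe, above background on the untreated array only, was at 0.12. On the 1 uM array, the brighter probes of Ogt, Ccnt2, Atr, Ptbp2, Paxbp1 and Sltm stood above untreated, by 0.02 (Ptbp2) to 0.97 (Ccnt2), and those of Washc4 and Pitpnc1 below it, at -0.49 and -0.18.

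Of the 6 genes with every such probe higher, Islr, which encodes a secreted leucine-rich repeat protein of mesenchymal cells, read 5.05 untreated, 5.50 at 0.01 uM and 0.62 at 1 uM on its brighter probe, and its 2 probes were 0.45 and 0.47 higher at 0.01 uM. Rarres2, which encodes the chemoattractant chemerin, read 0.94 untreated and 1.46 at 0.01 uM, with both probes 0.53 and 0.52 higher. It was not well above background at 1 uM. Mme, the cell-surface peptidase neprilysin, was 0.43 and 0.45 higher, and the serine protease inhibitor gene Serpina3f 0.43 and 0.67 higher. Against the same untreated array, the brighter probes of Islr, Mme and Serpina3f stood at -4.43, -2.79 and -1.28 at 1 uM. The other two were Ccdc71l (0.57 and 0.41) and Tmx3, a thioredoxin-related protein of the endoplasmic reticulum (0.56 and 0.41); a further Tmx3 probe, not above background at 0.01 uM, was at -0.19.

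**Figure D2:**
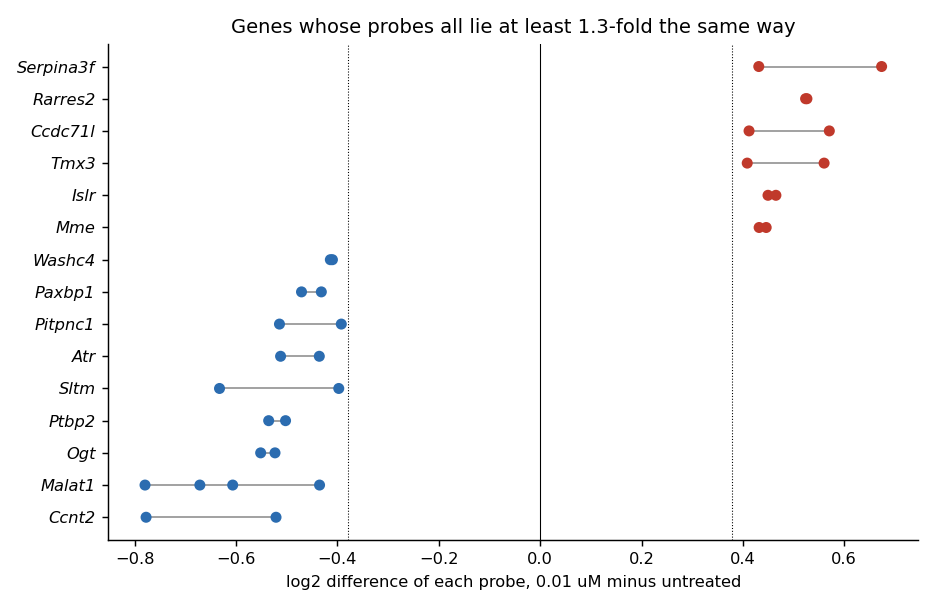
Each point is the log2 difference of 1 probe, 0.01 uM minus untreated, for the 15 genes with an official symbol whose probes all lie beyond 1.3-fold (dotted lines) on one side. Malat1 has 4 probes between -0.78 and -0.44, and the 6 genes on the right lie between 0.41 and 0.67.

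Among genes with an official symbol that stayed past 1.5-fold under quantile, loess and normexp settings, 13 lower and 7 higher ones were above the 25th percentile of signal, -0.30, on the brighter of their 2 arrays. Rbpms2, Akr1e1, Ddx25, Havcr2 and Maml2 passed only through the array on which they were high. The largest was Rbpms2, an RNA-binding protein of smooth muscle, which read -0.04 untreated, -1.60 at 0.01 uM and 1.03 at 1 uM, a difference of -1.56 ± 0.32 (SE of the error model) on 1 probe. Preb, a guanine nucleotide exchange factor for the vesicle coat protein SAR1, read 3.35, 2.20 and 2.07 in the same order, so that both treated arrays were lower. Havcr2, the immune checkpoint receptor TIM-3, read 0.19, -0.85 and -2.21, lower at 0.01 uM and lower still at 1 uM. Ddx25, an RNA helicase, read 0.05 untreated and -0.95 at 0.01 uM. Akr1e1, an aldo-keto reductase, differed by -0.95, and the synaptic scaffold gene Tanc2 by -0.82. Preb, Havcr2, Ddx25, Akr1e1 and Tanc2 also had further probes that were above background on no array, so each rests on the quoted probe alone. Rplp1-ps1, a pseudogene of a ribosomal protein, differed by -1.10, but its probe can pick up near-identical copies and its identity is uncertain.

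For a pair of these lower genes a second probe stood near its untreated level. Pea15a, which encodes a protein that holds ERK in the cytoplasm, read 1.81 untreated and 0.87 at 0.01 uM on its brighter probe (-0.94) and differed by 0.06 on the other. Cox17, the copper chaperone of cytochrome c oxidase, was 0.82 lower on a very bright probe (6.14 to 5.32) and 0.05 higher on its second. At 1 uM the bright Cox17 probe read 5.04.

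Of the 7 higher genes, Etfdh, which passes electrons from fatty acid and amino acid oxidation to ubiquinone, read 1.18 untreated, 2.14 at 0.01 uM and 1.37 at 1 uM, a difference of 0.96 ± 0.21. A further Etfdh probe was above background on no array. Lmf1, needed for lipase folding in the endoplasmic reticulum, read 1.90, 2.73 and 2.69, so both treated arrays lay above the untreated one. Mpdu1, which acts in the use of dolichol-linked mannose, read 0.58, 1.29 and 1.28, with the same order. Ddx47, a helicase of ribosomal RNA processing, was 0.74 higher, and Trex1, the exonuclease that clears cytosolic DNA, 0.61 higher. Maml2, a Notch coactivator, was 0.85 higher on one probe and differed by -0.09 on the other. Defa3 (0.92) belongs to a family of near-identical defensin genes, and its identity is uncertain. Higher genes with larger differences were below that percentile or had no official symbol, among them Rtn4ip1 (-2.34 to -0.90) and Sod3, described with its list. From their untreated levels, both could enter the comparison only by reading higher at 0.01 uM.

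The immediate early genes, which growth factor and stress signals switch on within minutes through ERK and serum response factor, had the highest median of the 37 lists, 0.21, against 0.06 over all genes. Of 31 on the list, 26 could be compared, 4 were saturated and 1 was not above background. Of the 26, 23 were above 0, against 64.7% of all genes, and 17 exceeded the upper quartile of all genes. One, Zfp36, was at least 1.5-fold higher and none was lower, and none was past 1.5-fold after quantile, loess, base-content centring or averaging of probes, where Zfp36 stood at 0.56, 0.55, 0.58 and 0.44. The median stayed above that of all genes by 0.09 to 0.18 under every setting that kept a filter on dim probes, and lay 0.17 below it where undetected probes were let in. The list is bright, with a median signal of 3.67. In the bin of signal from 3.44 to 4.39, the quartiles of all genes were 0.03 and 0.16, so most genes there were above 0. After loess scaling on signal the list's median stood 0.11 above that of all genes, in place of 0.15.

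Zfp36, whose product destabilises cytokine messenger RNAs, read 3.42 untreated, 4.06 at 0.01 uM and 1.26 at 1 uM, 0.64 higher at 0.01 uM; a second, dimmer probe was 0.24 higher. Fos, a component of the AP-1 transcription factor, was printed in 10 spots. It read 3.61 ± 0.04 untreated (SD over spots of 1 array), 4.15 ± 0.03 at 0.01 uM and -0.19 ± 0.08 at 1 uM, and its difference of 0.53 ± 0.04 was the largest among the replicated probes. The gap between the arrays was larger than the SD over spots, though the spots of an array share 1 RNA sample. Klf2, a Krüppel-like factor, read 5.61, 6.12 and 3.05, and Fosb read 3.28, 3.68 and -1.01, in the order untreated, 0.01 uM and 1 uM. Egr1, Sgk1 and Srf were 0.32, 0.33 and 0.33 higher at 0.01 uM, and Jun 0.15. Egr3 stood apart in the other direction, from 0.91 to 0.52, a difference of -0.38. For scale, the list's median at 1 uM was -0.72 against the same untreated array.

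**Figure D3:**
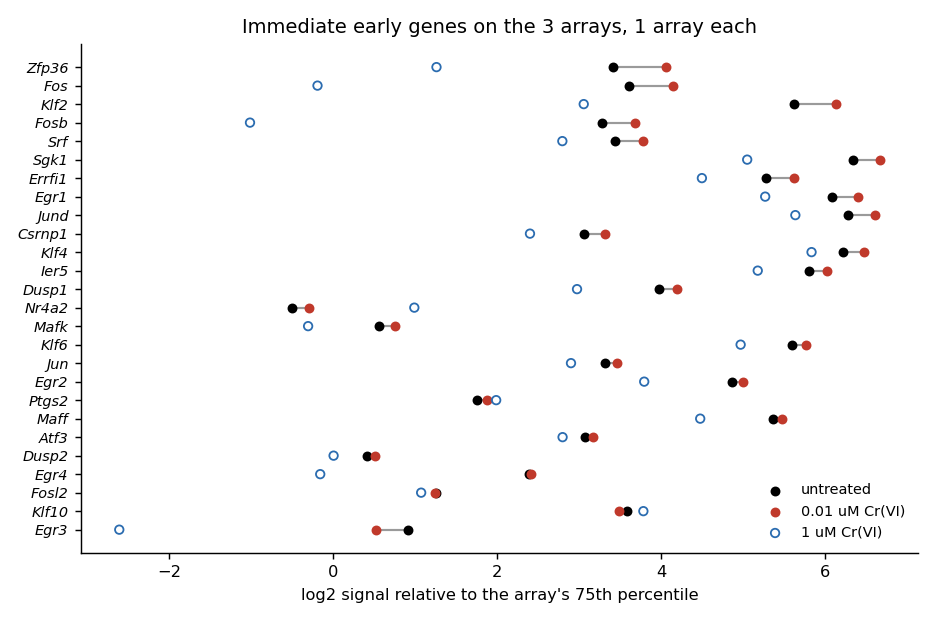
Log2 signal relative to each array's 75th percentile of 26 immediate early genes on the untreated (black), 0.01 uM (red) and 1 uM (open blue) arrays, 1 array each with no error bar, sorted by the difference between the first 2. For 23 genes the red point lies to the right of the black one, by at most 0.64, while Fos, Fosb and Egr3 show the widest gaps to the 1 uM array.

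The ERK cascade itself stood close to its untreated level, as did most genes. Of 31 measured cascade genes, 29 (93.5%) were within 1.2-fold, against 87.3% of all genes. None was past 1.5-fold, where 0.747% of all genes were higher and 0.889% lower, and the median was 0.04. The kinase gene Mapk3 (ERK1) read 3.84 untreated and 3.98 at 0.01 uM, and the upstream kinases Map2k1 and Map2k2 differed by 0.13 each. These are transcript levels and say nothing about phosphorylation. Of 24 feedback and target genes, 21 (87.5%) were within 1.2-fold, near the share over all genes, and none was past 1.5-fold, with a median of 0.08. Dusp6, the phosphatase that inactivates ERK, was 0.21 higher, the feedback inhibitor Spry2 0.31 higher and Phlda1 0.41 higher. Ccnd1, Fosl1 and Myc, targets tied to proliferation, differed by 0.03, 0.02 and 0.08.

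Genes that handle chromium and oxidative stress were mostly above 0 by small amounts, as were 64.7% of all genes. Of 18 genes for sulfate, phosphate and anion exchange, 8 could be compared, of which 7 were above 0 and none past 1.5-fold, with a median of 0.18. Slc20a1, a phosphate carrier, read 2.94 untreated, 3.31 at 0.01 uM and 4.30 at 1 uM, and Slc26a2, the main sulfate transporter of connective tissue, -1.70, -1.37 and -0.94. Both stood in dose order. Slc26a11, also a sulfate transporter, differed by -0.06. Among 37 glutathione and NRF2 target genes, 30 were above 0, 28 were above the median of all genes, 33 were within 1.2-fold, 1 was past 1.5-fold and the median was 0.13. This list is bright, with a median signal of 4.55. After loess scaling on signal its median stood 0.04 above that of all genes, in place of 0.08.

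Hmox1, the haem oxygenase that oxidative stress strongly induces, read 5.67 untreated and 5.84 at 0.01 uM, and Nqo1, a quinone reductase, 3.73 and 3.84. Gclc, the rate-limiting enzyme of glutathione synthesis, and Txnrd1, the cytosolic thioredoxin reductase, differed by -0.14 and -0.13. Gsr, glutathione reductase, stood at 0.52 on both arrays. The single gene past 1.5-fold was Sod3, the extracellular superoxide dismutase, which read -2.92 untreated and -1.31 at 0.01 uM, 1.61 ± 0.39 higher on a probe near the detection limit. That untreated level lay below the lowest level detected at 0.01 uM, so Sod3 could enter the comparison only by reading higher there. It was not well above background at 1 uM. None of 21 metallothionein, zinc and iron genes was past 1.5-fold, and 20 were within 1.2-fold, as were 87.3% of all genes.

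DNA repair and p53 target genes were likewise near their untreated level, as were most genes. Of 56 repair genes, 48 (85.7%) were within 1.2-fold, against 87.3% of all genes, and none was past 1.5-fold, with a median of 0.04. Atr, described above, had the lowest value, and Prkdc, the DNA-dependent protein kinase, was 0.32 ± 0.10 lower over 10 spots, from -0.31 to -0.63, and read 0.32 at 1 uM. At the other end, Mutyh, a glycosylase of oxidised base repair, was 0.39 higher and Rad54l, a recombination motor, 0.36 higher, both dim. H2ax, the histone phosphorylated at breaks, read 4.91 untreated and 5.26 at 0.01 uM. Of 33 p53 target and apoptosis genes, 32 were within 1.2-fold, with a median of 0.03. The cell cycle inhibitor Cdkn1a (p21) read 5.25 and 5.47.

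Matrix genes had a median of 0.15, after those of the immediate early and transporter lists. Of 47 collagen and fibrillar matrix genes, 39 were above 0, against 64.7% of all genes. Of the 47, 26 exceeded the upper quartile of all genes, 2 were at least 1.5-fold higher and none was lower. That count of 2 was 1 under quantile, loess and detected-probe percentile scaling and 0 under normexp and after centring on base content. Eln, which encodes elastin, read 0.39 untreated, 1.06 at 0.01 uM and -0.63 at 1 uM, and Nid2, a basement membrane linker, 2.77, 3.39 and 0.55. Both were highest at 0.01 uM. Sparc, a collagen-binding glycoprotein, read 6.44, 6.77 and 5.63, and Col1a1, a chain of type I collagen, 4.15, 4.36 and 3.47. Tnc (tenascin C), Col8a1 and the proteoglycan gene Lum went the other way, by -0.34, -0.34 and -0.32. The list median stayed above that of all genes by 0.06 to 0.13 under the settings that kept a filter. This list too is bright, with a median signal of 3.77. In the bin of signal from 3.44 to 4.39, all genes had quartiles of 0.03 and 0.16, so most genes there were above 0. Loess scaling on signal put the list's median 0.06 above that of all genes, in place of 0.09.

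Mmp19, a matrix metalloproteinase, was 0.64 higher, from -1.10 to -0.47, and was the only one of 26 matrix protease and inhibitor genes past 1.5-fold; it stood at 0.58 with detected-probe percentile scaling and 0.47 under normexp, both short of it. Among 35 contractile and TGF-beta responsive genes, Myh9, a nonmuscle myosin heavy chain, was the only one past 1.5-fold, at -0.68 on a dim probe. Its bright probe was saturated and gives no difference. None of 27 IGF and Wnt pathway genes was past 1.5-fold. The growth factor gene Igf2, in 8 spots, read 2.29 ± 0.02 untreated, 2.63 ± 0.04 at 0.01 uM and -1.31 ± 0.10 at 1 uM, 0.34 ± 0.03 higher at 0.01 uM. Bmp4, a growth factor of mesenchymal differentiation, read 2.48 ± 0.06, 2.90 ± 0.05 and 0.25 ± 0.05 over 9 spots.

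Igfbp7, a secreted IGF-binding protein, was 0.50 higher (5.72 to 6.21), and Sfrp1, a secreted Wnt antagonist, 0.39. Among the mesenchymal markers, Thy1, a surface glycoprotein of fibroblasts, read 2.84 untreated and 3.41 at 0.01 uM and was not well above background at 1 uM. Cdh11, the mesenchymal cadherin, was 0.65 lower on its brightest probe and 0.11 and 0.18 higher on the others. Probes for one gene thus disagreed in sign. Fabp4, a lipid carrier that marks adipocytes, read 4.56 untreated and 4.62 at 0.01 uM, and Sox9, the cartilage regulator, 3.56 and 3.63.

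The large housekeeping groups lay within a narrow band. For comparison, 87.3% of all genes were within 1.2-fold and 64.7% were above 0. Of 72 respiratory chain genes, 70 were above 0, 67 were within 1.2-fold and none was past 1.5-fold, with a median of 0.14. Of 38 proteasome genes, 37 were above 0 and 37 within 1.2-fold, with a median of 0.13. Of 75 mitochondrial ribosomal protein genes, 74 were within 1.2-fold, with a median of 0.10. These are bright genes, and the median difference of all genes went from 0.02 in the dimmest of the 10 bins of signal to 0.13 in the brightest. After loess scaling on signal, the respiratory chain median stood 0.04 above that of all genes, in place of 0.09.

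Of 82 cytosolic ribosomal protein genes, 45 could be compared and 37 were saturated. Their median was 0.09, and it stood 0.03 below that of all genes after loess scaling. Rps13 was -0.61 on a dim probe, and its bright probe was saturated and gives no difference. Among growth genes, 54 replication genes had a median of 0.06, 48 mitosis genes -0.00 and 53 ribosome biogenesis genes -0.01, and 1 of these 3 lists had a member past 1.5-fold, Ddx47, given above. Cdt1 and Mcm6, which license replication origins, read 5.41 and 5.40 untreated and 5.47 and 5.56 at 0.01 uM. Of 34 sterol and fatty acid synthesis genes, 31 were within 1.2-fold with a median of 0.00, and all 16 measured lipoic acid and 2-oxoacid dehydrogenase genes were within 1.2-fold. The share over all genes was 87.3%.

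**Figure D4:**
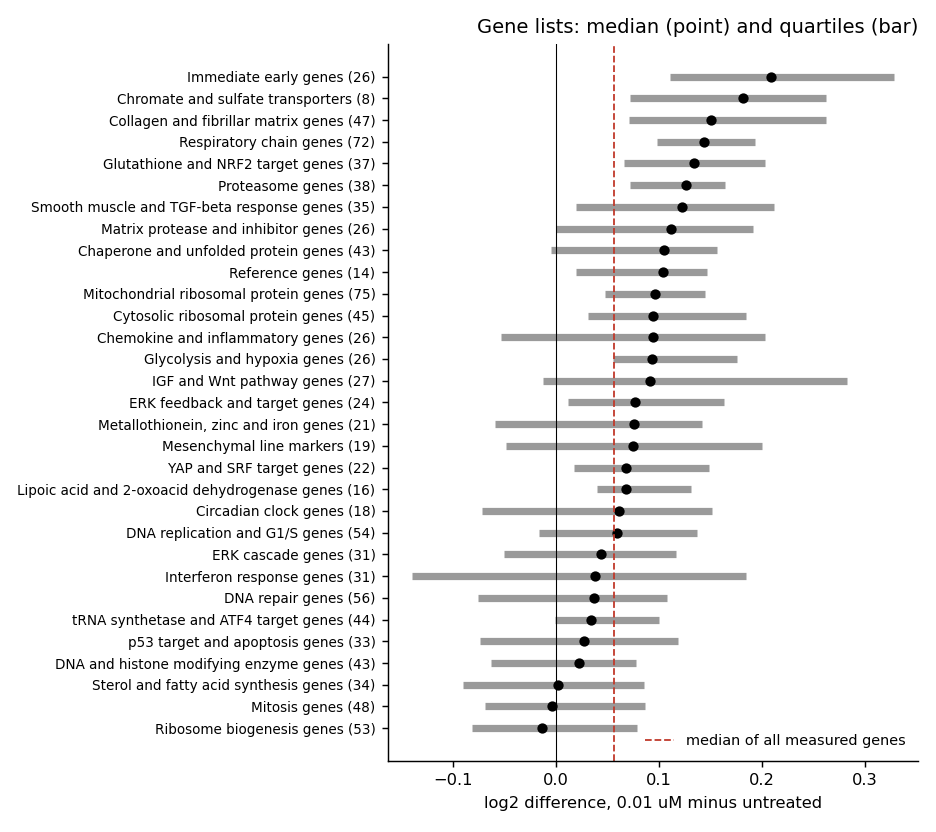
Median (point) and quartiles (bar) of the log2 difference, 0.01 uM minus untreated, for each gene list with at least 8 measured genes, with the number measured in parentheses. The medians run from -0.01 (ribosome biogenesis) to 0.21 (immediate early genes) around the all-gene median of 0.06 (dashed line).

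Commonly used reference genes were not all level. Hprt, of purine salvage, read 5.31 untreated and 5.41 at 0.01 uM, and the TATA-binding protein gene Tbp -2.03 and -1.95. Ppia, a peptidyl-prolyl isomerase, was 0.27 ± 0.12 higher over 10 spots. Actb, cytoskeletal actin, was 0.34 higher on its probe on chromosome 5, which carries the RefSeq accession. A brighter probe that bears the same name but maps to chromosome X stood at 3.93 on both arrays, and its identity is uncertain. B2m, the light chain of class I antigens, was 0.52 higher on its brightest probe, and 0.06 and -0.43 on 2 others, so no direction can be given.

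Interferon response genes did not share a direction. Of 31 measured, 17 were above 0, 12 were below the lower quartile of all genes and 10 above the upper, with a median of 0.04. Ifitm1, an antiviral membrane protein, read -0.50 untreated and 0.11 at 0.01 uM and was the only one past 1.5-fold, which it did not reach with detected-probe percentile scaling (0.56), normexp (0.51) or base-content centring (0.49). Xaf1 and Mx2, both interferon-induced, were 0.41 and 0.40 lower at 0.01 uM, and read 0.41 and 1.58 at 1 uM against -1.39 and -0.40 untreated. None of 26 chemokine and inflammatory genes was past 1.5-fold. Ccl2, a monocyte attractant, read 5.48 ± 0.07 untreated, 5.31 ± 0.13 at 0.01 uM and 6.39 ± 0.08 at 1 uM over 10 spots.

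Most of the lower genes were measured by probes of clones or predicted transcripts. Probes of clones or predicted transcripts with no RefSeq match represent 827 of 10575 genes (7.82%), yet 59 of the 94 lower genes (62.8%) and 23 of the 79 higher genes (29.1%). Within that class 7.13% were at least 1.5-fold lower and 2.78% higher. Among the 8743 genes whose probe carries a RefSeq accession, 0.183% were lower and 0.560% higher. The clone class is dimmer, with a median signal of 0.01 against 1.66, and where only RefSeq-named probes were kept, 52 genes were higher and 17 lower.

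Base content moved with the difference as well. Its median was -0.05 for probes with at most 30% G and C and -0.01, 0.03, 0.07, 0.11 and 0.12 in the steps above, reaching 0.13 over 55%. The 94 lower genes had a median of 40.0% G and C, the 79 higher genes 45% and all genes 43.3%. The gradient was seen in dim, middle and bright genes, split into 3 equal bins of signal: probes with at most 35% G and C had medians of -0.07, -0.01 and 0.05, and those over 50% had 0.09, 0.12 and 0.14. Both measures were looked at together in the band from 35% to 45%, where 7.39% of clone-named and 0.169% of accession-named genes were lower. The part of base content, probe class and array brightness in any single difference was not tested.

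**Figure D5:**
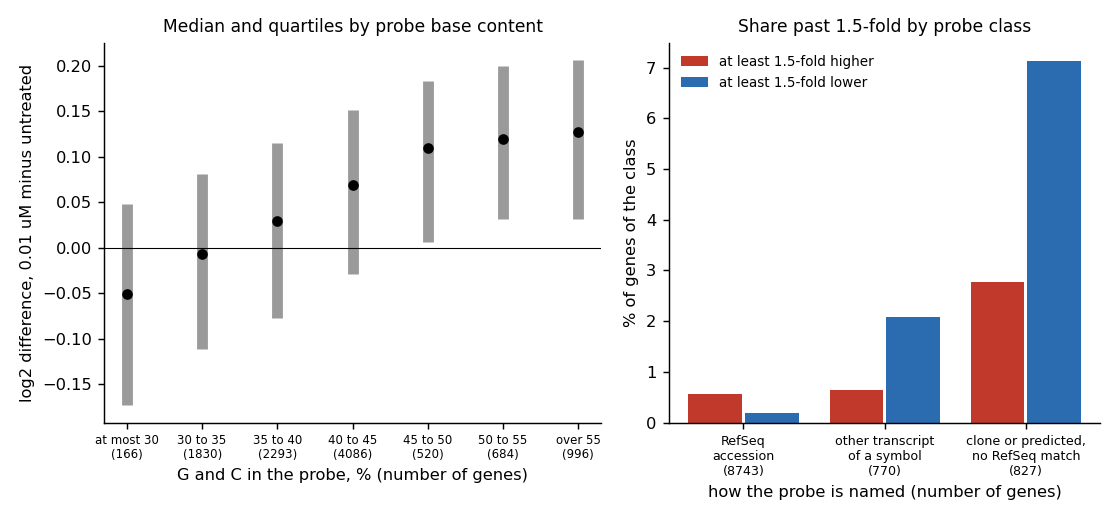
Left, median (point) and quartiles (bar) of the log2 difference by the share of G and C in the probe, each step running from above the first number to the second, with the number of genes in parentheses. Right, percent of genes at least 1.5-fold higher (red) or lower (blue) by how the probe is named: the lower share is 0.183% with a RefSeq accession and 7.13% for clones or predicted transcripts.

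Of the 173 genes past 1.5-fold, 45.7% were higher, among them genes that could enter only by reading higher at 0.01 uM. That split depended on the scaling and on the probes kept. It was 29.3% with scaling on the 75th percentile of detected probes, 31.0% after centring within base content and 75.4% with RefSeq-named probes only. Where detection on 1 array was enough it was 70.4%, but there a missing reading was set to its array's lowest detected level. That level was -3.02 untreated and -2.11 at 0.01 uM, so a dim gene lost at 0.01 uM could count as higher without a reading. With scaling on 5 spike-in control probes, which raised the median difference of all genes from 0.06 to 0.38, the share higher was 98.0%, and with no filter 94.2%.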

How the data were processed

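Members, gene lists and naming rules were chosen with earlier results of these data known. Spot intensity was deposited by the authors as scanner output of Agilent Feature Extraction 10.5.1.1 (array design 014868, Cy3, 1 slide), per the file headers; spatial and multiplicative detrending had been applied. The deposited value table holds log2 values that differ from log2 processed signal by 1 constant per array (9.45 untreated, 9.01 at 0.01 uM). Its column medians were -4.23, -3.96 and -4.03, and its scale, centring and direction matched the main setting. RNA was primed with oligo-dT, per the labels' protocols.

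Control and outlier spots were left out, log2 values were averaged over a probe's spots, and the 75th percentile of all probes on an array was then subtracted from its values. Probes were named through RefSeq (GRCm38.p6, names only) by accession (25252), symbol (6238) or synonym (1602), and 8075 kept the file's name. Coordinates are mm9, and exon or intron positions were not used here. No p-value was computed, and the number of arrays limits the precision.

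Named genes were up to 10 per direction past 1.5-fold under the main, quantile, loess (span 0.4) and normexp (limma 3.58.1, R 4.3.3, offset 50) settings above the 25th percentile of signal, up to 10 per direction with all probes past 1.3-fold, up to 3 list members per direction past 1.5-fold or else the 2 brightest, and fixed ERK and reference genes. A few genes named by these rules are not reported here. Other list members, the noncoding RNAs, the replicate-spot genes and Rtn4ip1 were chosen after their values were seen. Other steps used Python 3.11.15, numpy 2.4.6, pandas 2.3.3 and statsmodels 0.14.6. Counting was tested on simulated data.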

Additional observations from a re-analysis of the deposited data

Results flagged for a closer look

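Rbpms2 read lower than untreated after the low dose (log2 difference -1.56) and higher after 1 uM (1.07). Whether the doses differ was not tested. Both values share the untreated array, and 1 probe met the rule.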

How the results depend on the processing

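With 1 array a group, no value here has a replicate check. No paired analysis was possible because each group has 1 array. Counts are given as at least 1.5-fold higher and lower, then at least 2-fold higher and lower; the main values were 79, 94, 8 and 8. Spike-in scaling gave 734, 15, 40 and 1, with 2394 genes within 1.2-fold. Normexp background gave 27, 36, 3 and 3. No filter on dim probes gave 12908, 788, 729 and 261. These counts include undetected probes near each array's floor and are not counts of measured changes. Detection on either array, with bounds, gave 324 higher, and 32 and 20 past 2-fold. Some of these genes have a bound in place of a reading, so the counts of that setting are not counts of measured changes either. RefSeq-named probes, a setting chosen after seeing the data like the centring on base content, gave 52, 17 and, past 2-fold, 4 lower. The 2-fold lower count was 13 with the percentile of detected probes and 5 after quantile normalization. The other 44 count values were within 1.5 times. Of the 79 higher and 94 lower genes, 66 and 81 were shared after quantile normalization, 64 and 94 after loess and 24 and 31 after normexp. Among named genes past 1.5-fold, 4 had another sign in some setting: Rps13 at 0.39 and Myh9 at 0.41 with saturated probes kept, which are no measured increases because a saturated spot takes its difference from the scaling, and Maml2 at -0.0897 and Cox17 at 0.0461 with RefSeq-named probes, where another probe stands for the gene. A further 37 named genes under 1.5-fold changed sign in at least 1 setting. Of the remaining named-gene values, 1253 moved by less than their standard error and 125 by more. The cause was not tested.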
